A study of Mus musculus with 6 samples.

Results

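The inflammasome and pyroptosis genes examined here were Nlrp3, Aim2, Nlrc4, Naip2, Naip5, Nlrp1b, Pycard, Casp1, Casp4 and Gsdmd. They were taken by gene symbol as a fixed list of 10 genes out of 56092 symbols, and all 10 were found in the count table and in the FPKM table. The cells were RAW264.7, a mouse macrophage line. The shNC group is labelled an empty vector control, although the methods list a negative control shRNA for it, and the shTrem2 group carried a knockdown of Trem2, a lipid-sensing receptor of macrophages. Both lines were made by lentiviral transduction and puromycin selection according to the methods, which do not say which of the Trem2 shRNAs these libraries carry. Cells of both groups were treated alike, first for 24 hours with 20 ng/ml IL-4 and then for 24 hours with freeze-thawed debris of TCMK-1 tubular cells. Since each group is a separately selected line, an effect of the knockdown and a difference between the lines cannot be told apart. RNA of 3 replicates per group was sequenced, and neither untreated nor debris-free libraries were among the 6. Nothing states that the replicates came from separate cultures, so p-values measure only the spread between these samples.

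Inflammasomes are cytosolic complexes that macrophages assemble around a sensor of infection or damage. NLRP3 responds to loss of ion balance and membrane damage, AIM2 to DNA in the cytosol, NLRP1B to proteases such as anthrax lethal factor, and NLRC4 to bacterial flagellin and secretion proteins that are first bound by NAIP proteins. The adaptor ASC, encoded by Pycard, links NLRP3 and AIM2 to caspase-1, whereas NLRC4 and NLRP1B can reach caspase-1 through their own CARD domains. Caspase-1 matures IL-1β and IL-18 and cleaves gasdermin D, which opens pores in the plasma membrane and starts pyroptosis. Caspase-11, encoded by Casp4 in the mouse, senses cytosolic lipopolysaccharide and cleaves gasdermin D directly. RAW264.7 cells are widely known as a line that lacks ASC.

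Counts assigned to a named gene summed to between 15876061 and 18088372 per shNC library and to between 19358113 and 19655158 per shTrem2 library. Values are given as CPM, the usual depth-corrected unit, here relative to the TMM-scaled library total, and 3 counts, the limit allowed by a count of 0, corresponded to between 0.155 and 0.186 CPM per library. The limit of 3 counts covers counting error only. The intervals of fold changes given below also include the spread between these libraries. Trem2 was measured at 114, 122 and 144 CPM in shNC and at 64.7, 63.2 and 80.2 CPM in shTrem2, and the groups did not overlap. The size of this drop differed between the deposited tables, with a log2 fold change of -0.87 from counts and of -2.06 from limma on log2(FPKM + 1), where the FPKM were 152, 174 and 208 in shNC and 40.1, 38.6 and 46.4 in shTrem2. Of 9 macrophage markers, 8 were expressed above the filter on low counts and Mertk had at most 3 counts in any library. Of 5 markers of the IL-4 response, 4 were absent or nearly so, since Arg1, for which the series names the cells Arg1+, had between 1 and 3 counts in every library and Chil3, Retnla and Ccl24 had 0 in all 6. The fifth, Mrc1, had 5, 14 and 6 counts in shNC and 62, 71 and 56 in shTrem2. Of 12 tubular epithelial markers, 5 (Epcam, Krt8, Krt18, Krt19 and Cdh1) had 0 counts in all libraries, and the list summed to between 17 and 24 counts in shNC and between 45 and 57 in shTrem2. Without Aqp1, which had at most 50 counts, it summed to between 11 and 13 counts in shNC and to 7 in each shTrem2 library. Neutrophil markers summed to at most 3 counts in any library. Dendritic cell markers summed to between 135 and 149 counts in shNC and between 69 and 103 in shTrem2, most of them from Zbtb46, with Flt3 and Cd209a at 0 in all 6. The part of other cell types in the results was not tested.

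Promoter sequences are shown for some of the members with a motif match or a shared run of bases. The Nlrc4 window held no match to the motifs named below and is not shown. RefSeq promoters (GRCm38.p6) were found for 9 of the 10 genes. The sequences below are the 150 bases before the annotated start, 5′ to 3′ on the strand of the gene. In Pycard, Aim2 and Nlrp3, capitals mark GAGGAA or its reverse complement, the core bound by PU.1, the lineage factor of macrophages. In Casp4, capitals mark matches to the NF-kB motif on either strand. In Naip2 and Naip5, capitals mark the longest run of bases that both promoters share.
Pycard, chr7:127993868-127994017, minus strand: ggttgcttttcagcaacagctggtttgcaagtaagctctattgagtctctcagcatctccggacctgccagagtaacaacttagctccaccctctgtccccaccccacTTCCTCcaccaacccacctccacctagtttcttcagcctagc
Aim2, chr1:173420454-173420603, plus strand: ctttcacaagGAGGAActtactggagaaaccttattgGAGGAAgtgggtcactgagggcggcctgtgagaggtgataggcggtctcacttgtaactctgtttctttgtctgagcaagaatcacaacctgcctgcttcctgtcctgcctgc
Nlrp3, chr11:59542536-59542685, plus strand: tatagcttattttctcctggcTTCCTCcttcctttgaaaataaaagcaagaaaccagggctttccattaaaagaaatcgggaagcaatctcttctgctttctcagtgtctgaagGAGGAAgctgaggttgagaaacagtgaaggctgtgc
Casp4, chr9:5308699-5308848, plus strand: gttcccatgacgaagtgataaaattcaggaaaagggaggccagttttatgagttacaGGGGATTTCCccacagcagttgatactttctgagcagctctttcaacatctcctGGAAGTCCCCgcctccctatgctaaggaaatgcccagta
Naip2, chr13:100202123-100202272, minus strand: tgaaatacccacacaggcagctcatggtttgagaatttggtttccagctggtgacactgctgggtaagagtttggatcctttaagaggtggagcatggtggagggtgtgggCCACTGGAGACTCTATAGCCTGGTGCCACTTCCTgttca
Naip5, chr13:100247337-100247486, minus strand: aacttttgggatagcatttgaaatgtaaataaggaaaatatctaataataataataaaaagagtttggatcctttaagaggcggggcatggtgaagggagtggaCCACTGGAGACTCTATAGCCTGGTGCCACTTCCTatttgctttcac

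The PU.1 core was found in the window of 5 of the 9 genes (Aim2, Casp1, Nlrp1b, Nlrp3 and Pycard), where 14.5% of 32544 promoters hold it. The NF-kB motif was found in 1 of the 9, Casp4, where 4.63% of promoters hold it, and its first bases lay 93 and 39 bases before the start. The interferon-responsive motifs ISRE (GAAA, any 2 bases and GAAA, in 1.60% of promoters) and GAS (TTCNNNGAA, in 4.10%) had no match in these windows. Both strands were searched and overlapping matches were counted once. Nlrp3, Casp4 and Nlrp1b each have a second listed start, which was searched as well. A gene was counted if either window matched, whereas the shares over all are per promoter. The second windows of Nlrp3 and Nlrp1b held no PU.1 core. The Naip2 and Naip5 windows were identical at 107 of 162 aligned positions (66.0%), and their longest shared run was 34 bases. These matches describe letters and not bound sites.

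The genes did not move as a block between shTrem2 and shNC. With edgeR's quasi-likelihood test, an FDR under 0.05 and a fold change over 1.5, Nlrp3 and Pycard were higher and Nlrc4 was lower in shTrem2, which is 3 of 10 genes (30.0%), while 21.8% of all 13528 genes tested met the same criteria. Pycard passed the filter on low counts only through the shTrem2 libraries, where it was higher, and without it the count was 2 of 9. With the FDR alone, 8 of the 10 passed (7 of 9 without Pycard), against 57.4% of all genes. Of these 8, 4 were higher and 4 lower, where 28.8% of all genes tested were higher and 28.6% lower. Without Pycard, 3 were higher and 4 lower. For the same 8 (7 without Pycard), the groups did not overlap, which was the case for 63.8% of all genes tested. The median log2 fold change of the 10 genes was -0.07 (-0.11 without Pycard), against 0.00 over all genes tested. The lowest and highest fold changes among the 10 were those of Nlrc4 and Pycard. Without Pycard the highest was that of Nlrp3.

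**Figure D1:**
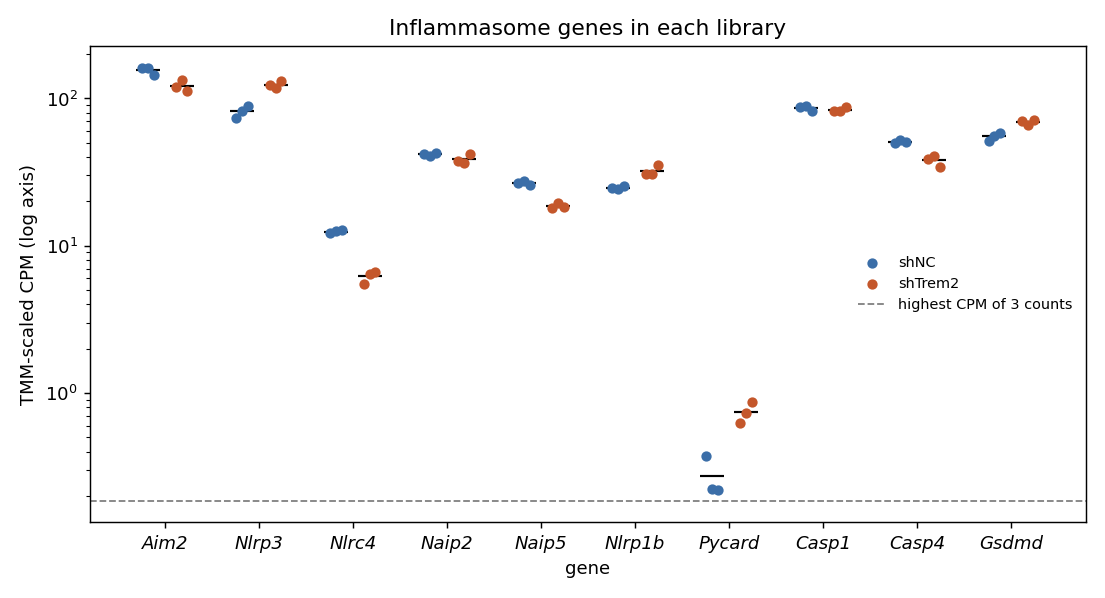
TMM-scaled CPM of the 10 genes on a log axis, with 1 point per library (shNC blue, shTrem2 orange), the group mean as a bar and the highest CPM of 3 counts, 0.186, as a dashed line. The groups separate for 8 genes and overlap for Casp1 and Naip2, and Pycard lies far below the other 9.

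**Figure D2:**
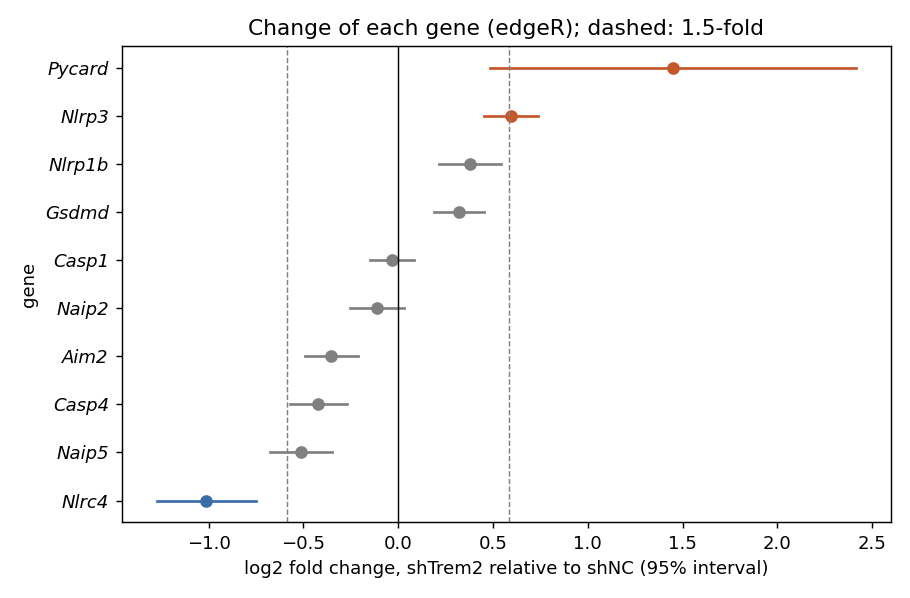
Log2 fold change of each gene in shTrem2 relative to shNC with its 95% interval from edgeR, and dashed lines at 1.5-fold. Orange and blue mark genes past both criteria and grey the others. The intervals of Nlrp3, Pycard and Naip5 include a 1.5-fold line.

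The adaptor gene Pycard (ENSMUSG00000030793) was present only in traces. Its summed counts were 6, 4 and 4 in shNC and 12, 14 and 17 in shTrem2. This corresponded to 0.373, 0.222 and 0.220 CPM in shNC and to 0.626, 0.731 and 0.876 CPM in shTrem2. Every library was above the limit of 3 counts, so the transcript was detected, and all counts lay in 1 of the 2 transcript rows of the gene. On the authors' FPKM scale, which corrects for transcript length, Pycard had 0.11, 0.06 and 0.06 in shNC and 0.18, 0.21 and 0.24 in shTrem2, and no library reached 1 FPKM. The partner protease Casp1 had between 63.1 and 70.5 FPKM in the same libraries. By its mean FPKM, Pycard exceeded 31.3% of the 23825 symbols with any FPKM above 0, and Casp1 exceeded 92.9%.
The shTrem2 values of Pycard lay above all shNC values. The log2 fold change was 1.45 (standard error 0.45, 95% interval from 0.49 to 2.41, edgeR adjusted p = 0.0132). The call was lost with DESeq2 (adjusted p = 0.0851), without shNC replicate 2 (0.0617), without shNC replicate 3 (0.0519) and without shTrem2 replicate 3 (0.0521). With limma on log2(FPKM + 1) the difference was 0.17 (adjusted p = 0.104). In bulk RNA, a few cells with more Pycard and a little Pycard in every cell cannot be told apart. RNA left from the added debris was not distinguished from RNA of the cells, and the source of these few counts was not tested.

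Among the sensors, Nlrp3 (ENSMUSG00000032691) rose. It was measured at 74.1, 82.0 and 88.8 CPM in shNC and at 123, 117 and 130 CPM in shTrem2. The 2 groups were separated by more than the range within either. The log2 fold change was 0.59 (standard error 0.066, edgeR adjusted p = 4.27e-06), a 1.51-fold difference that barely exceeds the 1.5-fold criterion, and its 95% interval ran from 0.45 to 0.74. The FDR stayed under 0.05 in all 16 alternative fits, but in 6 of them the fold change was below 1.5. It was 0.52 on the log2 scale when shNC replicate 1 was left out and 0.54 when shTrem2 replicate 3 was left out. The counts lay in 2 transcript rows, which held 75.7% and 24.3% of the gene's counts, and both had higher counts in each shTrem2 library than in any shNC library.

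Nlrp1b (ENSMUSG00000070390) was higher to a smaller extent. It was at 24.9, 24.1 and 25.6 CPM in shNC and at 30.7, 30.8 and 35.3 CPM in shTrem2, without overlap. The log2 fold change was 0.38 (standard error 0.076, edgeR adjusted p = 7.59e-04), below the 1.5-fold criterion. Its neighbor and paralog Nlrp1a was scarce, at 0.469 ± 0.207 CPM in shNC against 1.14 ± 0.143 CPM in shTrem2 (SD, n = 3 each), and its log2 fold change of 1.25 (edgeR adjusted p = 0.0147) was not called with DESeq2 (0.0594), without shNC replicate 1 (0.0769) or without shTrem2 replicate 1 (0.0574). The transcripts of Nlrp1b and Nlrp1a shared no stretch of 150 bases, the read length, with another gene in GENCODE M21. The genes encoding DPP8 and DPP9, the proteases that hold NLRP1 proteins inactive, had log2 fold changes of 0.21 and 0.17 (edgeR adjusted p = 0.00805 and 0.0230). Both are named after their values were seen.

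Aim2 (ENSMUSG00000037860), the most abundant of the 10 genes, was lower in shTrem2. It was at 161, 162 and 144 CPM in shNC and at 120, 133 and 113 CPM in shTrem2. The groups did not overlap, and the log2 fold change was -0.35 (standard error 0.065, edgeR adjusted p = 3.82e-04). With limma on FPKM values the adjusted p rose to a highest value of 0.0567, and in FPKM shTrem2 replicate 2, at 160, lay close to the lowest shNC library, at 161. The main transcript row held 75.4% of the counts, and it was lower in each shTrem2 library than in any shNC library.

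Nlrc4 (ENSMUSG00000039193) had the largest fall. It was at 12.1, 12.6 and 12.7 CPM in shNC and at 5.48, 6.48 and 6.59 CPM in shTrem2. All shTrem2 values lay far below the lowest shNC value, and the spread within each group was small. The log2 fold change was -1.01 (standard error 0.12, 95% interval from -1.27 to -0.75, edgeR adjusted p = 9.66e-06), and it was called in all 16 alternative fits, with values between -1.07 and -0.70.

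The NAIP proteins, which bind the bacterial ligands for NLRC4, were split. Naip5 (ENSMUSG00000071203), a flagellin receptor, was at 26.6, 27.4 and 26.0 CPM in shNC and at 18.1, 19.5 and 18.4 CPM in shTrem2. It did not overlap between groups, and its log2 fold change was -0.51 (standard error 0.075, edgeR adjusted p = 5.88e-05). Naip6, also a flagellin receptor, was at 20.7 ± 1.09 CPM in shNC against 15.1 ± 1.19 CPM in shTrem2 (SD, n = 3 each), with a log2 fold change of -0.45 (edgeR adjusted p = 8.59e-04). Both changes were below 1.5-fold. Naip2 (ENSMUSG00000078945), which binds the secretion rod protein, was at 42.2, 40.8 and 42.5 CPM in shNC and at 37.5, 36.6 and 41.8 CPM in shTrem2. The groups overlapped through shTrem2 replicate 3, and the difference of -0.11 did not pass the test (95% interval from -0.26 to 0.03, edgeR adjusted p = 0.158). Naip1, which binds the secretion needle protein, had between 4 and 9 counts per library and was not tested.
These genes are neighbors with similar sequences. Of the 150-base stretches in the annotated transcripts, 8.25% in Naip5, 1.89% in Naip6 and 0.537% in Naip2 occur in another gene as well, so a part of the Naip5 reads could be assigned to a paralog. None was shared for the other 8 genes of the list.

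Of the caspases, Casp4 fell and Casp1 did not pass the test. Casp1 (ENSMUSG00000025888) was at 87.3, 88.9 and 81.9 CPM in shNC and at 82.8, 82.4 and 86.8 CPM in shTrem2. The groups overlapped, and the log2 fold change was -0.03 with a 95% interval from -0.15 to 0.08 (edgeR adjusted p = 0.610). Casp4 (ENSMUSG00000033538) was at 49.6, 52.3 and 50.9 CPM in shNC and at 39.1, 40.9 and 34.2 CPM in shTrem2. No shTrem2 library reached the lowest shNC value. The log2 fold change was -0.42 (standard error 0.070, edgeR adjusted p = 1.68e-04), below the 1.5-fold criterion.

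Gsdmd (ENSMUSG00000022575), the pore-forming substrate of both caspases, was higher. It was at 51.8, 55.9 and 58.2 CPM in shNC and at 70.7, 65.7 and 71.2 CPM in shTrem2, without overlap. The log2 fold change was 0.32 (standard error 0.061, edgeR adjusted p = 5.07e-04), a 1.25-fold difference. The main transcript row, with 87.8% of the counts, was higher in each shTrem2 library than in any shNC library. Irf2, a transcription factor known to drive Gsdmd, was at 40.2 ± 3.14 CPM in shNC against 57.9 ± 2.64 CPM in shTrem2 (SD, n = 3 each), a log2 fold change of 0.53 (edgeR adjusted p = 1.85e-05). Irf1 had a log2 fold change of 0.14 and did not pass the test (edgeR adjusted p = 0.163).

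Ratios of counts were computed within single libraries, where the scaling between libraries has no part. The pairs were chosen after their values were seen. The count ratio of Casp4 to Casp1 was 0.569, 0.589 and 0.621 in shNC and 0.472, 0.496 and 0.394 in shTrem2. The ratio of Naip5 to Naip2 was 0.629, 0.671 and 0.611 in shNC and 0.483, 0.534 and 0.441 in shTrem2. Both were lower in every shTrem2 library.
The ratio of Gsdmd to Casp1 was 0.593, 0.629 and 0.711 in shNC and 0.854, 0.797 and 0.820 in shTrem2. The ratio of Nlrp3 to Aim2 was 0.462, 0.506 and 0.617 in shNC and 1.02, 0.880 and 1.16 in shTrem2, so that Aim2 counts exceeded Nlrp3 counts in all shNC libraries and in 1 of 3 shTrem2 libraries. For each of the 4 ratios the two-sided exact permutation p was 0.1, which is the smallest that 3 against 3 libraries allow. It stayed 0.1 after Benjamini-Hochberg adjustment over these 4 ratios only. Since the pairs were chosen with their values known, this test cannot decide whether the genes of a pair differ.

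**Figure D3:**
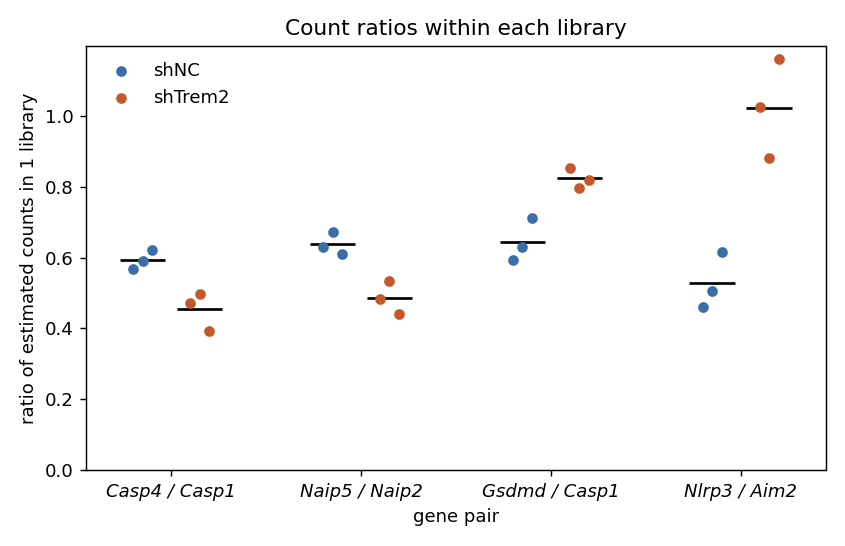
Ratios of estimated counts within each library for 4 gene pairs, with 1 point per library and the group mean as a bar. Groups separate for each pair, with Casp4 / Casp1 and Naip5 / Naip2 lower and the other 2 ratios higher in shTrem2.

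Levels between genes were compared on the FPKM scale. In shNC the order was Aim2 at 164 ± 2.79, Casp1 at 67.9 ± 2.57, Gsdmd at 57.9 ± 2.86, Casp4 at 50.8 ± 2.05, Nlrp3 at 22.5 ± 1.91, Naip2 at 9.87 ± 0.209, Nlrp1b at 6.53 ± 0.171, Naip5 at 5.46 ± 0.175, Nlrc4 at 2.95 ± 0.0351 and Pycard at 0.0767 ± 0.0289 FPKM (SD, n = 3 each). The ranges of neighbors in this order did not overlap. In shTrem2 the means were 135 ± 21.8 for Aim2, 71.9 ± 7.16 for Gsdmd, 64.8 ± 1.87 for Casp1, 37.6 ± 4.44 for Casp4, 33.3 ± 1.89 for Nlrp3, 8.92 ± 0.724 for Naip2, 8.30 ± 0.694 for Nlrp1b, 3.75 ± 0.158 for Naip5, 1.44 ± 0.130 for Nlrc4 and 0.210 ± 0.0300 FPKM for Pycard. There the ranges of 3 neighboring pairs overlapped, which were Gsdmd and Casp1, Casp4 and Nlrp3, and Naip2 and Nlrp1b. Gsdmd and Casp1 had thus exchanged places, but not beyond their spread.

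**Figure D4:**
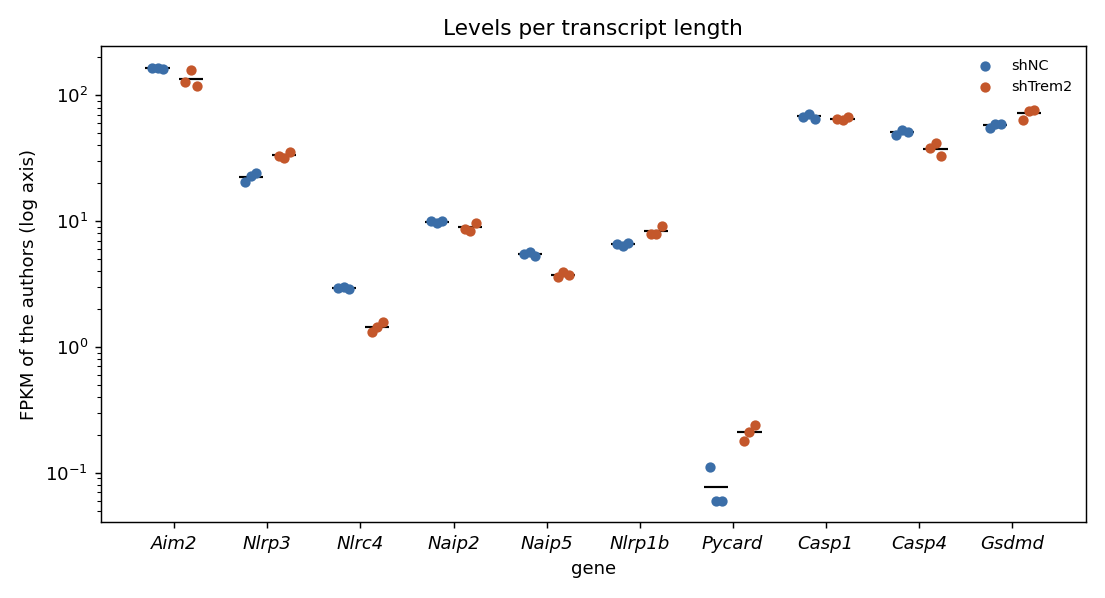
FPKM of the 10 genes as deposited, on a log axis, with 1 point per library and the group mean as a bar. Aim2 is highest and Pycard lowest in both groups, and Nlrc4 and Naip5 are the lowest of the sensors.

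The rest of the pathway was examined with lists of 109 genes, of which 84 were tested. Of these, 19 were higher and 8 lower in shTrem2 by both criteria, where 9.46% of all genes tested were higher and 12.4% lower, and the median log2 fold change was 0.20 against 0.00 over all genes. Among the 84 were 7 genes (Nlrp1a and 6 guanylate-binding protein genes) that were under the filter's cutoff of 0.534 CPM in at least 1 library of one group and so could pass mainly through the group where they were higher. Without them 14 of 77 were higher and 7 lower, and the median was 0.17. With at least 10 counts required in every library, 22 genes of the lists passed in place of 27. The AIM2-like receptors are DNA-binding paralogs of Aim2 that are known to respond to interferon. Of 8 tested genes among 12 matched, 5 were higher by both criteria and 0 lower, and the median of the 8 was 0.91. Ifi202b was at 45.1, 47.3 and 52.2 CPM in shNC and at 122, 124 and 123 CPM in shTrem2 (log2 fold change 1.35, edgeR adjusted p = 7.97e-10). Ifi211 (1.91), Ifi204 (1.11) and Ifi207 (1.08) were also higher. Of the 150-base stretches of Ifi211, 46.4% occur in another gene, chiefly paralogs of this family, so its value is uncertain. For Ifi204 the share was 6.77%, in common with Ifi211.
Guanylate-binding proteins help to expose bacterial membranes and DNA to caspase-11 and AIM2. The list was not split by whether a protein promotes or restrains this route. Among 12 tested genes of guanylate-binding and IRG proteins and their regulators, 7 were higher and 1 lower (9.46% and 12.4% of all genes tested). The median of the 12 was 0.88. Without the 6 that were under the cutoff in a library of one group (Gbp2b, Gbp3, Gbp5, Gbp6, Gbp7 and Gbp8), 3 of 6 were higher and 0 lower, with a median of 0.61. Gbp7 had 6, 5 and 9 counts in shNC and 211, 223 and 204 counts in shTrem2, a log2 fold change of 4.83 (edgeR adjusted p = 1.18e-09), but it entered the test only through the shTrem2 libraries. Of the 150-base stretches of Gbp7, 8.77% occur in another gene as well. Gbp3 (3.49) and Gbp2b (2.21) rose from similarly low levels, whereas Gbp8 fell from 2.17 ± 0.375 to 0.537 ± 0.108 CPM (SD, n = 3 each). Many genes of this family, like Casp4 and Aim2, are known to be induced by interferon. Casp4 (log2 fold change -0.42) and Aim2 (-0.35) were lower, each by less than 1.5-fold. A part of interferon in these changes was not tested.

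**Figure D5:**
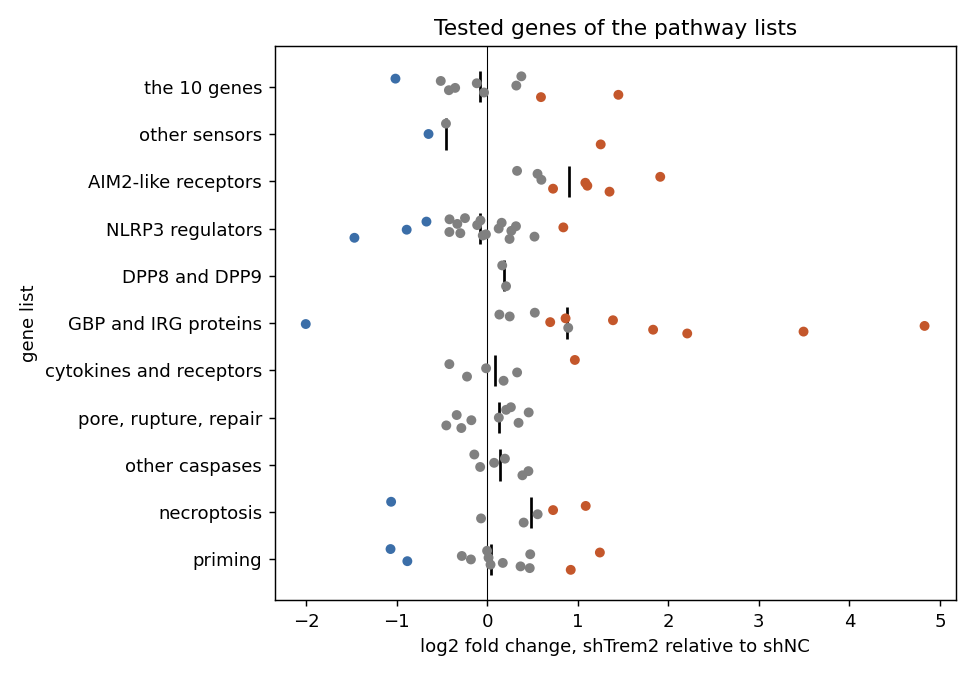
Log2 fold change in shTrem2 relative to shNC of each tested gene by list, with the list median as a bar. Orange and blue points passed both criteria and grey points did not. The medians of the AIM2-like receptors, 0.91, and of the GBP and IRG proteins, 0.88 (0.61 without 6 genes of low counts in one group), lie farthest from 0.

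Of 19 tested genes that act on NLRP3, 1 was higher and 3 lower by both criteria (9.46% and 12.4% of all genes tested). Their median log2 fold change was -0.07. Txnip, which binds NLRP3 under oxidative stress, fell from 2180 ± 291 to 790 ± 93.4 CPM (SD, n = 3 each), a log2 fold change of -1.46 (edgeR adjusted p = 2.37e-08). Kcnk6, a potassium channel linked to the ion loss that activates NLRP3, had a log2 fold change of -0.89, and Nlrc3, a restraining NOD-like receptor, one of -0.67. Clic4, a chloride channel protein, was higher by 0.84. Nek7, the kinase that NLRP3 requires for assembly, was at 108 ± 5.52 CPM in shNC against 128 ± 3.0 CPM in shTrem2 (SD, n = 3 each, log2 fold change 0.25, edgeR adjusted p = 9.13e-04). P2rx7, the ATP receptor that triggers NLRP3, had a log2 fold change of -0.30 (edgeR adjusted p = 0.00109). Nek7 and P2rx7 changed by less than 1.5-fold.
Among 3 tested further sensors, Nlrp1a was called higher and Nlrp10 lower (9.46% and 12.4% of all genes tested). Nlrp1a was over the filter's cutoff in 1 of 3 shNC libraries and in all 3 shTrem2 libraries, so it passed mainly through the group where it was higher. Nlrp10 was at 38.8, 41.8 and 45.0 CPM in shNC and at 23.0, 34.5 and 22.8 CPM in shTrem2 (log2 fold change -0.65, edgeR adjusted p = 6.84e-04). Its change was below 1.5-fold without shTrem2 replicate 1 (-0.55) and without shTrem2 replicate 3 (-0.55).

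The cytokine end of the pathway was nearly silent for IL-1. Il1b had 8, 2 and 5 counts in shNC and 12, 7 and 7 counts in shTrem2, which was too few to be tested, and the groups overlapped. Il18, by contrast, was expressed at 18.8, 16.9 and 18.6 CPM in shNC and at 20.2, 21.4 and 20.0 CPM in shTrem2. Its groups did not overlap, but the log2 fold change of 0.18 did not pass the test (edgeR adjusted p = 0.0806). Il1rn, the receptor antagonist, had a log2 fold change of -0.22 (edgeR adjusted p = 0.0302), which was not past the FDR with DESeq2 (0.0719) or without shNC replicate 2 (0.0783), shNC replicate 3 (0.0582), shTrem2 replicate 1 (0.0613) or shTrem2 replicate 3 (0.110). Of 6 tested genes of this list only Hmgb1 passed both criteria, as did 21.8% of all genes tested. Hmgb1, which encodes a nuclear protein released from dying cells, was at 199 ± 14.8 CPM in shNC against 389 ± 35.5 CPM in shTrem2 (SD, n = 3 each).
Of 9 tested genes for pore formation, membrane rupture and repair, 4 were higher and 4 lower at an FDR under 0.05 (28.8% and 28.6% of all genes tested). By both criteria 0 passed, where 21.8% of all genes tested did. Ninj1, which ruptures the membrane after pores have formed, was at 79.0, 83.5 and 82.5 CPM in shNC and at 59.4, 62.0 and 58.0 CPM in shTrem2 (log2 fold change -0.45, edgeR adjusted p = 9.12e-06). Gsdme, a gasdermin cleaved by caspase-3, had a log2 fold change of -0.28 (edgeR adjusted p = 0.0138), which was not past the FDR with DESeq2 (0.0551) or with limma on log2(FPKM + 1) (0.133) and log2(FPKM + 0.1) (0.145). Gsdmd and Ninj1, which act in sequence in the same death, thus differed in opposite directions.

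Of 6 other caspases tested, 0 passed both criteria with edgeR, where 21.8% of all genes tested did. At an FDR under 0.05, 3 were higher, as were 28.8% of all genes tested. Casp8, which can cleave gasdermin D when other routes are blocked, had a log2 fold change of 0.20 (edgeR adjusted p = 0.00828), which was not past the FDR with limma on log2(FPKM + 1) (0.142) or log2(FPKM + 0.1) (0.143). The priming list holds receptors and transcription factors that induce inflammasome genes. By both criteria 2 of its 13 tested genes were higher and 2 lower (9.46% and 12.4% of all genes tested). The median of the list was 0.04. Tlr2 was higher with a log2 fold change of 0.92, while Ticam1, the TLR adaptor TRIF, was lower by 0.88, with 34.1 ± 2.54 CPM in shNC against 18.5 ± 0.621 CPM in shTrem2 (SD, n = 3 each). Tnf fell from 321 ± 21.8 to 153 ± 15.1 CPM (SD, n = 3 each, edgeR adjusted p = 2.88e-08). A part of priming in the change of Nlrp3 was not tested.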

How the data were processed

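According to the paper's methods and the labels, the authors cleaned the reads of poly(A)-selected, stranded libraries (paired ends of 150 bases) with fastp, used HISAT2 with read orientation for alignment and StringTie for transcript assembly. The submitters' processing notes list the build GRCm39, and the counting tool is not given in the sources used here. The authors deposited estimated counts per transcript row, labelled by gene symbol only, and FPKM values per gene identifier. Of the nonzero count values, 79.3% were not whole numbers (tolerance 0.001). The authors' 2 columns of group means were not used.

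Counts were summed per symbol and rounded. Rows with no symbol, 0.908% to 1.12% of a library, were excluded. Differential expression was tested with edgeR 4.0.16 in R 4.3.3 (TMM, filterByExpr, glmQLFit, glmQLFTest, no covariates) over 13528 genes with Benjamini-Hochberg adjustment. The criteria, FDR under 0.05 and fold change over 1.5, are the paper's. Standard errors and 95% intervals were derived from the quasi-likelihood F. Alternatives used DESeq2 1.42.0, limma 3.58.1 (voom, and trend on log2(FPKM + 1) and log2(FPKM + 0.1), whose fold changes are understated for low genes), other scalings and filters, other thresholds, a replicate block and each library left out. Ratios within libraries were compared with two-sided exact permutation tests. The fitting step was tested on simulated data. Transcript stretches came from GENCODE M21 (GRCm38) and promoters from RefSeq, whose build differs from that of the reads.

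The members and lists were chosen with earlier results of these data known. Named genes were the members, Trem2, Arg1, up to 4 called genes per list with the largest changes, and 12 genes named whatever their change. Other markers are named for checks of the labels, and Irgb10, Pydc3 and Pydc4 were not matched by symbol. A result for 1 further gene is not reported here.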

Additional observations from a re-analysis of the deposited data

How the results depend on the processing

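Of 16 alternative fits, the number of the 10 genes passing both criteria (3) became 1 with limma on log2(FPKM + 1) and 2 with DESeq2, upper quartile scaling, library size only, at least 10 counts in every library and log2(FPKM + 0.1). It ranged from 1 to 3 when 1 library was left out, and the 1 was without shTrem2 replicate 3, where Nlrc4 remained. Without a fold threshold it was 8. All genes passing (2951) numbered 7763 without a fold threshold and 1339 with a fold change over 2, and genes of the pathway lists (27) numbered 65 and 16, by construction of the thresholds. Leaving out 1 library gave between 2789 and 3105 genes in all and between 26 and 30 of the lists. Pycard was above 3 counts in 6 libraries, and 0 reached 1 FPKM. Of the 43 named genes that were refitted, 0 reversed direction. Casp4, Gsdmd, Naip5, Nlrc4 and Nlrp1b kept an FDR under 0.05 in all 16 fits, Aim2 in 14, and Casp1 in 0. Naip2 passed in 1 of the 16, with log2 fold changes between -0.18 and -0.07. Under the other scalings the median log2 fold change over all genes stayed within 0.1 of 0. The cause of the changes was not tested. Replicate numbers are shared between groups in the labels. The deviations of same-numbered libraries had correlations of 0.006, -0.004 and 0.007 across genes, and no library correlated best with its own number. An effect shared by same-numbered libraries was thus not seen, but such correlations cannot exclude that the samples were paired. With the replicate block, 3 of the 10 genes, 2911 genes in all and 27 genes of the lists passed. Depth limits statements on Pycard, Il1b, Naip1 and Nlrp1a, which rest on few counts.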

Other observations

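Necroptosis is a lytic death that does not use gasdermin D. Its list had 6 tested genes, of which 2 were higher and 1 lower in shTrem2 by both criteria (9.46% and 12.4% of all genes tested), with a median log2 fold change of 0.48 against 0.00 over all genes tested. Ripk1 (log2 fold change 0.40) and Mlkl (0.56) were higher at an FDR under 0.05 but by less than 1.5-fold. Ripk3 (-0.07) did not pass the FDR. Ripk1, Mlkl and Ripk3 are named after their values were seen. Fadd, the adaptor between death receptors and caspase-8, was at 5.78, 5.71 and 6.71 CPM in shNC and between 12.7 and 13.1 CPM in shTrem2 (log2 fold change 1.09, edgeR adjusted p = 3.93e-06). Cflar, which encodes the caspase-8 inhibitor c-FLIP, was at 361, 335 and 296 CPM in shNC and at 164, 159 and 153 CPM in shTrem2 (log2 fold change -1.06, edgeR adjusted p = 1.58e-08). Zbp1, a nucleic acid sensor that is known to be induced by interferon, was at 3.59 ± 0.206 CPM in shNC against 5.96 ± 0.241 CPM in shTrem2 (SD, n = 3 each), with a log2 fold change of 0.73. The groups did not overlap for Fadd, Cflar and Zbp1, which was the case for 63.8% of all genes tested.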
